A study of Mus musculus with 2 samples.

Results

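The genes followed here mark cholangiocytes and the ductular reaction of injured liver. They are the keratin genes Krt7, Krt19 and Krt23, the surface and junction genes Epcam, Cldn7 and Cd24a, the secreted protein gene Spp1 (osteopontin), and the regulators Sox9 and Bicc1. They were taken by symbol or synonym from the probe annotation of both arrays, which gave 9 genes of 22803, each with 1 probe. Sox9 was spotted 10 times on each array and every other gene once, so the 9 probes filled 18 of 43020 non-control spots. Liver RNA of C57BL/6 mice was measured on 2 Agilent arrays of 2 colours, 1 with wild-type mice and 1 with mice labelled AID transgenic. On either array the Cy5 channel held RNA of liver exposed to thioacetamide, which the mice drank for 6 months in their water. The Cy3 channel held RNA of liver with no treatment and of the same genotype. Thioacetamide is a hepatotoxin used to produce chronic liver injury in rodents. The labels do not state the promoter that drives the AID transgene, the age or sex of the mice, or whether a channel held 1 animal or a pool. A liver below therefore means the RNA of 1 channel. The questions are how far these genes differed between exposed and unexposed liver in either genotype, and whether that response was alike in both.

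Cholangiocytes are the epithelial cells that line the bile ducts and modify bile. In chronic injury, small duct-like structures known as the ductular reaction spread from the portal tracts, built of cells that express keratins and adhesion proteins of the duct lineage and, in part, derived from hepatocytes that take on duct features. Their fate is governed by Notch and YAP signalling and by Sox9, and they lie among stellate cells, macrophages and matrix. In whole liver RNA, fewer cells of a type and less RNA per cell cannot be told apart.

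Because each gene rests on 1 probe, 4 of the 60-base probe sequences are shown, those of the 2 classic duct keratins, the surface marker Epcam and Spp1. Capitals mark the longest run that the probe shares with a probe of any other gene on the array, and coordinates are those of the scanner files, on the mouse build mm9.
Krt7: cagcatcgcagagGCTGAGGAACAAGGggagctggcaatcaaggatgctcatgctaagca
Krt19: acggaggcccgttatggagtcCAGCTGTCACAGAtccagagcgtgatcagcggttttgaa
Epcam: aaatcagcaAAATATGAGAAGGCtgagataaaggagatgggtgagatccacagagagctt
Spp1: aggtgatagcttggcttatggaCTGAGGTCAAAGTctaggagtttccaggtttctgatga
The Krt7 probe lies on the plus strand of chr15:101253718-101253777, that of Krt19 on the minus strand of chr11:100002392-100002451 and that of Spp1 on the plus strand of chr5:104868502-104868561. The Epcam probe spans chr17:88048972-88049800 on the plus strand, where 60 bases cover 829 bases of the genome, so it crosses an intron. The longest shared run was 14 bases for Krt7 and Epcam and 13 for Krt19 and Spp1. Among the probes of Krt7, Krt8, Krt18, Krt19 and Krt23 the longest run common to any 2 of these genes was 7 bases.

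With 1 array per genotype there is no replicate, no test and no p-value, so the small number of arrays sets the precision. Each ± gives the error that the scanner software assigned to the spot, a technical error that leaves out the spread between mice, and a difference called beyond the error exceeds that value only. Levels are log2 intensities after background correction (normexp, offset 50), loess within each array and Aquantile between arrays, and are compared between livers for the same probe, never between genes. A gene was counted at 2-fold where its log2 value reached 1 in size and its probe was well above background, as the scanner software judged it, in at least 1 channel that entered. In Cy3, 56.0% of non-control spots of the wild-type and 53.9% of the AID transgenic array passed that mark, and in Cy5 68.4% and 68.8% did. Dye was not swapped, so treatment and dye cannot be told apart within an array. The untreated and treated wild-type livers differed in sex-linked transcripts: Xist was well above background in the treated wild-type liver only, whereas Ddx3y, Eif2s3y and Uty were well above background in the other 3 livers only and Kdm5d in none. Treated wild-type liver held at least 17.6-fold lower Ddx3y and at least 32.1-fold lower Eif2s3y than untreated wild-type liver, and every comparison below that holds the treated wild-type liver carries this difference, whose part in the results was not tested.

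On the wild-type array 6 of the 9 duct markers were higher after treatment by more than the scanner error and 0 were lower, and on the AID transgenic array 1, Krt23, was higher and 2, Krt19 and Spp1, were lower. The share of all genes beyond their own scanner error is not given here, so these counts have no background to be set against. The treated wild-type liver held the highest of the 4 levels, by a step beyond its error, for 5 genes: Krt23, Spp1, Cldn7, Bicc1 and Cd24a. In wild-type mice 3 of the 9 genes, Bicc1, Krt23 and Cd24a, were at least 2-fold higher after thioacetamide and 0 were lower, where 1.86% of 16663 measured genes were higher and 1.64% lower. The median log2 ratio of the 9 was 0.59, against 0.03 over all measured genes. In AID transgenic mice 0 of the 7 measured genes were at 2-fold in either direction, against a background of 1.22% higher and 0.947% lower among 16693 genes, and the median was -0.10, against 0.03. Of the 9, Krt7 and Epcam entered the wild-type count only through the treated channel, the one in which they were well above background. Neither was well above background in any AID transgenic channel.

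**Figure D1:**
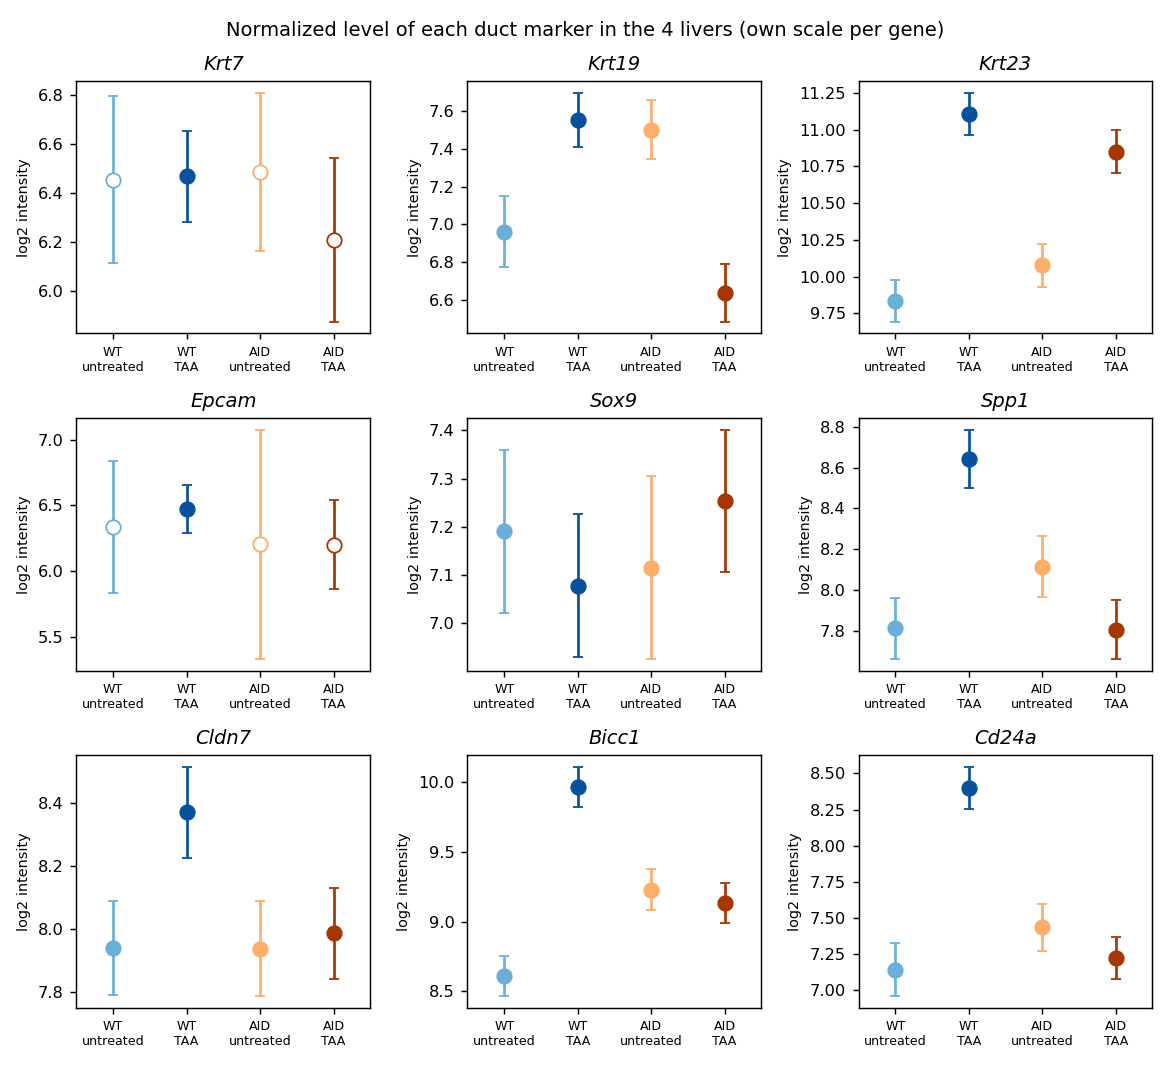
Normalized log2 intensity of the 9 duct markers in the 4 livers (WT, wild-type; TAA, thioacetamide), each gene on its own scale. Points are the level in 1 channel (for Sox9 the mean of 10 spots), bars the scanner software's error of the signal, and open points are not well above background. The treated wild-type liver is the highest point beyond error for Krt23, Spp1, Cldn7, Bicc1 and Cd24a, while for Krt19 it lies within error of the untreated AID transgenic liver.

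The keratins form the intermediate filaments of epithelial cells, and Krt7 and Krt19 are the type II and type I keratins of bile ducts that adult hepatocytes lack. Krt7 had log2 levels of 6.45 in the untreated and 6.47 in the treated wild-type liver and of 6.49 and 6.21 in the untreated and treated AID transgenic liver. Only the treated wild-type value was well above background, so this defining duct marker lay at or near background on these arrays. In wild-type mice the log2 treatment ratio of Krt7 was 0.01 ± 0.39, within its error. It turned to -0.06 with the scanner's processed signals and to -0.11 with median centring. No fold is given for AID transgenic mice, where both channels were not well above background. All steps between neighbouring Krt7 levels were smaller than their errors.

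Krt19 was well above background in all 4 livers, and its treatment ratio had opposite signs in the 2 genotypes. Its log2 levels were 6.96 ± 0.19 and 7.55 ± 0.15 in the untreated and treated wild-type liver, and 7.50 ± 0.16 and 6.64 ± 0.15 in the untreated and treated AID transgenic liver. The treated AID transgenic liver was thus the lowest, and the untreated AID transgenic and treated wild-type livers shared the top, 0.05 apart with an error of 0.21. The log2 ratio of treated over untreated was 0.59 ± 0.24 in wild-type, or 1.51-fold, and -0.87 ± 0.28 in AID transgenic mice. The difference between the ratios was -1.46 ± 0.37. It was made up of a level 0.54 ± 0.25 higher in the untreated AID transgenic than in the untreated wild-type liver and a level 0.92 ± 0.21 lower in the treated one. As scanned, Krt19 was dim, with signals over local background of 56.1, 192, 96.5 and 61.0 in the same order of livers.

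Krt23, a type I keratin gene, was the only one of the 9 that was higher beyond its error in both treated livers. It had log2 levels of 9.84 ± 0.14 and 11.11 ± 0.14 in the untreated and treated wild-type liver and of 10.08 ± 0.14 and 10.85 ± 0.14 in the AID transgenic pair. Both treated livers therefore lay above both untreated ones. Its log2 ratio was 1.27 ± 0.24 in wild-type and 0.77 ± 0.22 in AID transgenic mice, which is 2.41-fold and 1.71-fold. The difference between the ratios, -0.50 ± 0.32, was below 2-fold. Krt8 and Krt18, the keratin pair that hepatocytes and cholangiocytes both express, had log2 ratios of -0.05 ± 0.20 and 0.73 ± 0.21 in wild-type and of 0.09 ± 0.21 and 0.48 ± 0.21 in AID transgenic mice.

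Epcam encodes an adhesion molecule of duct and progenitor cells, and Cldn7 a claudin, a protein of tight junctions and the lateral membrane of epithelia. Epcam had log2 levels of 6.34, 6.47, 6.20 and 6.20 in the untreated and treated wild-type and the untreated and treated AID transgenic liver, and only the treated wild-type value was well above background. In wild-type mice the log2 treatment ratio of Epcam was 0.14 ± 0.45, within its error. It was 0.74 with the scanner's processed signals and -0.03 with median centring. The steps between neighbouring Epcam levels were all within error. Cldn7 had levels of 7.94 ± 0.15, 8.37 ± 0.15, 7.94 ± 0.15 and 7.98 ± 0.15 in the same order. The treated wild-type liver stood above the other 3, which did not differ beyond their errors. Its log2 ratio was 0.43 ± 0.21 in wild-type and 0.05 ± 0.21 in AID transgenic mice.

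Cd24a encodes a small glycoprotein anchored to the cell surface, used to isolate duct progenitors and carried also by B cells and other leukocytes. Its log2 levels were 7.14 ± 0.18 and 8.40 ± 0.15 in the untreated and treated wild-type liver and 7.44 ± 0.16 and 7.22 ± 0.15 in the AID transgenic pair. The treated wild-type liver was 0.97 above the next, with an error of 0.22, and the 3 others followed in neighbouring steps within their errors. Across those steps, the untreated AID transgenic liver lay 0.29 ± 0.24 above the untreated wild-type liver. The treatment ratio was 1.26 ± 0.28 in wild-type, or 2.39-fold, and -0.21 ± 0.22 in AID transgenic mice, where its sign turned to 0.06 with median centring. Between the treated livers Cd24a was lower in the AID transgenic one by a log2 value of -1.18 ± 0.21.

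Spp1 encodes osteopontin, a secreted phosphoprotein that cholangiocytes make and that activated macrophages and stellate cells can also make. It had log2 levels of 7.81 ± 0.15 and 8.64 ± 0.14 in the untreated and treated wild-type liver and of 8.11 ± 0.15 and 7.80 ± 0.15 in the AID transgenic pair. The treated AID transgenic and untreated wild-type livers were the lowest and lay within error of each other. The log2 ratio was 0.83 ± 0.23 in wild-type, or 1.78-fold, and -0.31 ± 0.21 in AID transgenic mice, where its sign turned to 0.12 with median centring. Of 8 genes of osteopontin receptors, all measured, 0 were at 2-fold in either genotype, with medians of 0.17 and 0.19. Cd44, a hyaluronan receptor that also binds osteopontin, had log2 ratios of 0.14 in wild-type and 0.25 in AID transgenic mice, and the integrin gene Itgav had 0.20 ± 0.24 and -0.10 ± 0.24.

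Sox9, the transcription factor that marks duct cells and hepatocytes with duct features, did not differ between any of the livers beyond its scanner error. Its log2 levels, each a mean of 10 spots, were 7.19 ± 0.17, 7.08 ± 0.15, 7.12 ± 0.19 and 7.25 ± 0.15 in the untreated and treated wild-type and the untreated and treated AID transgenic liver, and the levels overlapped within their errors. The 10 wild-type spots had log2 treatment ratios with a lowest value of -0.21, a median of -0.12 and a highest of -0.02, a mean of -0.11 and an SD of 0.07. The AID transgenic spots ran from -0.03 over a median of 0.15 to 0.25, with a mean of 0.14 and an SD of 0.09. Paired by position, the difference was above 0 at all 10 positions, with a mean of 0.25 and an SD of 0.09. Spots of 1 probe repeat the hybridisation and not the mice. With median centring the wild-type ratio of Sox9 was 0.11.

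**Figure D2:**
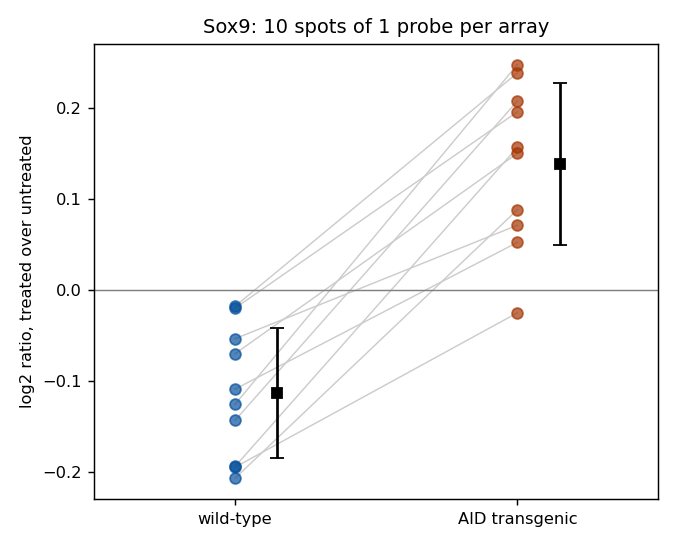
Log2 ratio of treated over untreated liver at each of the 10 spots of the Sox9 probe on both arrays, with grey lines joining spots at the same array position and black squares with bars giving the mean and SD over spots. The wild-type spots lie between -0.21 and -0.02, and all 10 lines rise toward the AID transgenic array.

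Bicc1 encodes an RNA-binding protein needed for normal ducts and tubules, whose loss gives cystic kidneys in mice. Its log2 levels were 8.61 ± 0.15 and 9.96 ± 0.14 in the untreated and treated wild-type liver and 9.23 ± 0.14 and 9.13 ± 0.14 in the AID transgenic pair. The treated wild-type liver was the highest, the untreated wild-type liver the lowest, and the AID transgenic livers lay between, within error of each other. The log2 treatment ratio was 1.35 ± 0.25 in wild-type, or 2.56-fold, the highest of the 9. It was -0.10 ± 0.20 in AID transgenic mice, a sign that turned to 0.51 with median centring.

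**Figure D3:**
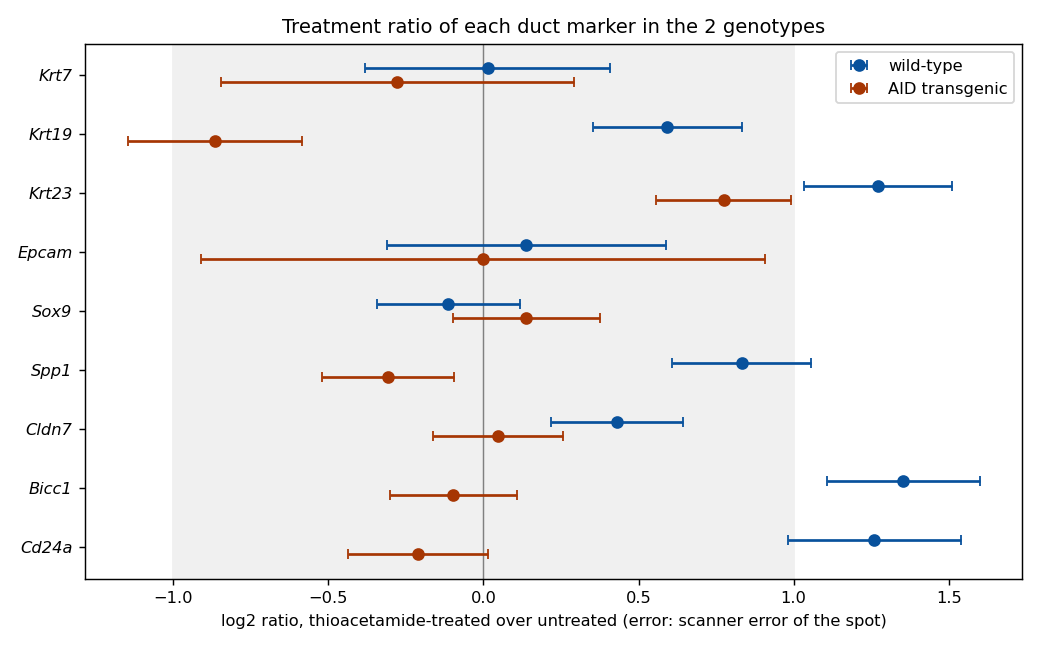
Log2 ratio of treated over untreated liver for the 9 duct markers on the wild-type (blue) and the AID transgenic array (brown). Bars are the error the scanner software gave its own ratio, and the grey band spans ratios under 2-fold. Bicc1, Krt23 and Cd24a lie above the band in wild-type, and none of the 9 lies outside it in AID transgenic mice.

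The treatment ratios of 4 of the 9 genes, Krt19, Spp1, Bicc1 and Cd24a, were at least 2-fold lower in AID transgenic than in wild-type mice, and 0 were higher. Among all 17107 genes with a difference, 1.05% were lower and 0.929% higher. The values were -1.46 ± 0.37 for Krt19, -1.14 ± 0.31 for Spp1, -1.45 ± 0.32 for Bicc1 and -1.47 ± 0.36 for Cd24a. The median of the 9 was -0.50, against 0.00 over all genes. Cldn7 had -0.38 ± 0.30 and Sox9 0.25 ± 0.33. Krt7, at -0.29 ± 0.69, and Epcam, at -0.14 ± 1.01, had errors larger than their values. These errors belong to the ratio of the scanner's processed signals, with which Krt7 had -1.55 and Epcam -0.62. The AID transgenic signals of both were not well above background. This difference and both treatment ratios use the same 4 channels.

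Between the untreated livers, 0 of 7 measured genes of the 9 were at 2-fold, where 0.308% of 14297 genes were higher and 0.294% lower in AID transgenic than in wild-type mice. The log2 values were 0.62 ± 0.21 for Bicc1, 0.54 ± 0.25 for Krt19, 0.30 ± 0.21 for Spp1, 0.29 ± 0.24 for Cd24a and 0.24 ± 0.20 for Krt23, so these 5 were higher beyond their errors. Cldn7 had 0.00 and Sox9 -0.08. Krt7 and Epcam were not well above background in either. Without normalization between arrays Bicc1 had 0.45 and Krt19 0.44 in the untreated comparison, still beyond their errors. Spp1, Cd24a and Krt23 then had 0.17, 0.18 and 0.07, within theirs, against a median of -0.13 over all genes. The share of all genes beyond their own error is not given. Between the treated livers, Cd24a alone of the 9 was at 2-fold and lower in AID transgenic mice, against 0.761% lower and 0.732% higher among 17079 genes. Krt19 had -0.92 ± 0.21, Spp1 -0.84 ± 0.21, Bicc1 -0.83 ± 0.20, Cldn7 -0.38 ± 0.21 and Krt23 -0.26 ± 0.20. Sox9 was the 1 gene with a value above 0, at 0.18 ± 0.21. Krt7 had -0.26 ± 0.38 and Epcam -0.27 ± 0.39, within their errors, and only their treated wild-type values were well above background. With the scanner's processed signals they had -1.25 and -1.35.

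**Figure D4:**
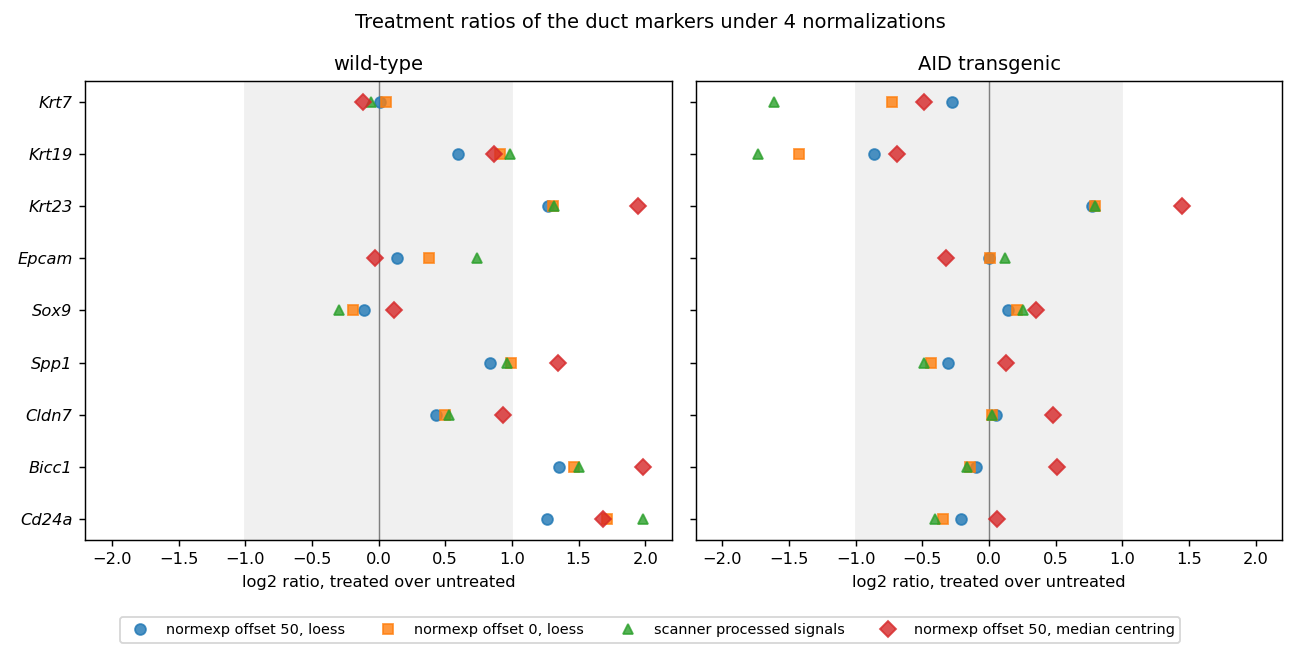
Log2 ratio of treated over untreated liver for the 9 duct markers under 4 ways of normalizing each array, wild-type on the left and AID transgenic on the right, with the grey band marking ratios under 2-fold. With median centring (red diamonds), which puts the median of all genes at 0.35 in wild-type and 0.34 in AID transgenic mice, most points move to the right, and AID transgenic Spp1, Bicc1 and Cd24a pass from below to above 0.

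Of 35 other biliary epithelial genes, 30 were measured in wild-type mice, with 1 at least 2-fold higher (against 1.86% of all genes), 0 lower and a median of 0.18, and 28 in AID transgenic mice, with 0 at 2-fold and a median of -0.07. The gene at 2-fold was Prom1, a membrane glycoprotein of progenitor cells, at 2.30 ± 0.49, a mean of 2 probes with 3.62 and 0.99. In the difference between genotypes Prom1, at -2.47, and the tetraspanin gene Tspan8, at -1.29, were lower, 2 of 30 against 1.05% of all genes, with a list median of -0.14. Both values rest in part on signals that were not well above background, for Tspan8 in the untreated wild-type liver and for 1 of the 2 Prom1 probes in all but the treated wild-type liver. The duct transcription factor gene Onecut1 had a log2 ratio of 0.31 ± 0.26 in wild-type and of -0.35 ± 0.26 in AID transgenic mice. Prom1 and the matrilysin gene Mmp7 were lower in the treated AID transgenic than in the treated wild-type liver, at -2.59 and -1.12. These were 2 of 30 measured, against 0.761% of all genes lower.

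Of 17 Notch and YAP genes 16 were measured in both genotypes, and the lists had medians of 0.15 in wild-type and 0.03 in AID transgenic mice. The gene at 2-fold was Ccn2, a YAP and TGF-beta target, at -1.15 ± 0.24 in AID transgenic and -0.47 ± 0.21 in wild-type mice. It was 1 of 16, against 0.947% of all genes lower in AID transgenic mice. Jag1, the Notch ligand of bile duct formation, had -0.07 ± 0.23 and -0.09 ± 0.24 in wild-type and AID transgenic mice. Of 15 genes of signals that act on ductular cells, 14 were measured, with medians of -0.02 and -0.06. Tnfrsf12a, the receptor of TWEAK, a cytokine that drives proliferation of liver progenitor cells in mice, was at 1.30 ± 0.24 in wild-type and at 0.96 ± 0.22 in AID transgenic mice. It was 1 of 14 at 2-fold in wild-type mice, against 1.86% of all genes higher. Its ligand gene Tnfsf12 had -0.18 and -0.12.

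Some markers of other cell types that can express genes of the 9 differed between the livers alongside them, and their part in the result was not tested. For the lists that follow, the shares of all genes at 2-fold were 1.86% higher and 1.64% lower in wild-type mice. They were 1.22% and 0.947% in AID transgenic mice and 0.929% and 1.05% in the difference between genotypes. Between untreated livers they were 0.308% and 0.294%, and between treated livers 0.732% and 0.761%. Of 10 macrophage and Kupffer cell markers, Trem2 and Gpnmb, genes of lipid- and scar-associated macrophages, were at 2-fold in wild-type mice, Trem2 at 1.54 ± 0.30 and Gpnmb at least 2.76-fold higher. Clec4f, Cd5l and Vsig4 were higher in AID transgenic mice, and the list medians were 0.18 and 0.64. The summed linear level of this list was 14108 and 17674 in the untreated and treated wild-type liver and 19058 and 38816 in the AID transgenic pair. The treated AID transgenic liver was thus the highest. Bright probes weigh most in such a sum, among them Marco, with log2 levels of 10.07, 10.83, 12.60 and 13.25 in the same order. Trem2, at -1.24, and Gpnmb, at -1.25, were lower in the treated AID transgenic than in the treated wild-type liver, as Spp1 was. In the same comparison Adgre1, Cd5l and Marco were higher in AID transgenic mice, at 1.07, 1.41 and 2.42. Marco was higher by 2.54 between the untreated livers too, and Adgre1 and Cd5l had 0.24 and 0.08 there. Of 6 stellate cell markers, Col1a1 was higher in wild-type mice at 1.60 ± 0.26 and Acta2 lower in AID transgenic mice at -1.89 ± 0.29, with medians of 0.29 and -0.38. In the difference between genotypes, Lrat, Acta2 and Col1a1 were lower at -1.33, -1.56 and -2.03. Acta2 was higher in the untreated AID transgenic than in the untreated wild-type liver, at 1.41, and Lrat and Col1a1 were lower between the treated livers, at -1.56 and -1.16. The stellate list summed to 1615, 2692, 2619 and 1517 in the untreated and treated wild-type and the untreated and treated AID transgenic liver.

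Mesothelial cells, which cover the liver, express Krt19 as well. Of their 6 markers 2, 5, 1 and 3 were well above background in the 4 livers, and their summed level, which includes probes not well above background, was 480, 681, 523 and 470. Msln, the gene of mesothelin, reached a level at least 1.98-fold higher with treatment in wild-type mice and had -0.81 ± 0.36 in AID transgenic mice, signs like those of Krt19. Its ratios differed by -1.80, and both Msln, at -1.07, and Wt1, a mesothelial transcription factor gene, at -1.06, were lower in the treated AID transgenic than in the treated wild-type liver. The list medians were 0.36 over 5 and -0.08 over 3 measured genes. No hepatocyte marker but Apoa1, at -1.79 in wild-type and -1.84 in AID transgenic mice, was at 2-fold, of 9 measured, and the medians were -0.46 and -0.12. Alb, the gene of albumin, was well above background in all 4 livers, with log2 levels of 16.98, 17.58, 17.28 and 17.45. Of 8 lymphocyte markers, Cd79b was higher in AID transgenic mice, with medians of 0.05 and 0.18, and of 5 endothelial markers 0 were at 2-fold, with medians of -0.14 and 0.20. Of 3 measured erythroid genes Alas2 was lower in wild-type mice at -2.33 (medians -0.42 and -0.19), and of 3 measured pancreatic acinar genes 0 were at 2-fold (medians -0.27 and -0.34).

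**Figure D5:**
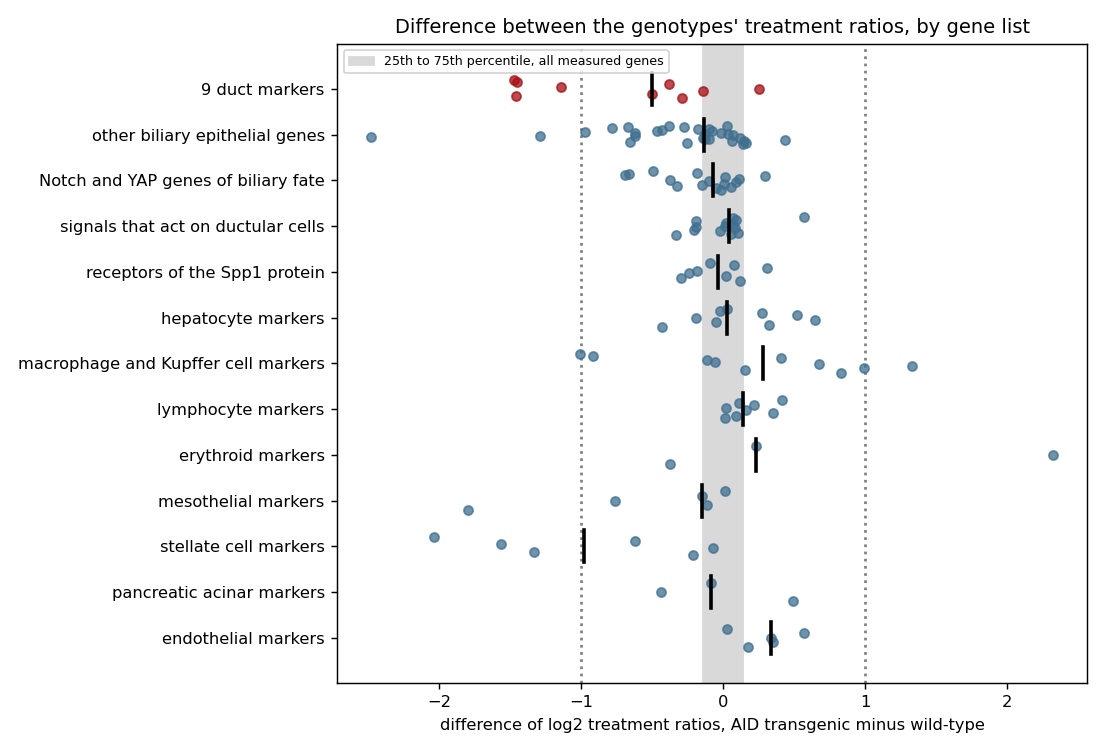
Difference between log2 treatment ratios, AID transgenic minus wild-type, for each measured gene of the 9 duct markers (red) and of other gene lists (blue). Black bars mark list medians. The sex-linked transcripts, with Eif2s3y at 5.23 and Xist at -2.52, are not drawn. The grey band holds the middle of all measured genes, from the 25th to the 75th percentile, and dotted lines mark 2-fold. The duct markers have a median of -0.50 and the stellate cell markers one of -0.98.

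Among 12441 named genes well above background in all 4 livers, those whose centred levels lay nearest to each marker were listed by Euclidean distance over the 4 channel values, in log2 units. Nearest to Krt19 were Serpinh1, a collagen chaperone gene, at 0.11, and Htra1 and Neu3, both at 0.22. Nearest to Bicc1 was the collagen gene Col3a1, at 0.11, followed by Hamp and Ndrg1, both at 0.17. Spp1 lay nearest to Itga8, Sgms1 and Mal, each between 0.10 and 0.11, and Cd24a to Cdkn1c at 0.14, Ano1 at 0.19 and Gsdme at 0.21. For Krt23 the nearest were Klf6, BC048507 and Crym, at 0.08 to 0.09. Cldn7 and Sox9, with the flattest profiles, had Klhdc4, Ndufa7 and Zfp874a, and Adpgk, Thoc1 and Fastkd5, within 0.03. With 4 values per gene, many genes lie close by the number compared alone.

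Promoter windows of 250 bases before the start were matched for 5 of the 9 genes in RefSeq, on GRCm38.p6. Those of Krt23 and Spp1 are shown, since they are the matched genes with the highest wild-type ratios. Capitals mark letters searched on both strands, here the SOX motif ACAAT, the Ets motif CCGGAA and the TATA box TATAAA.
Krt23: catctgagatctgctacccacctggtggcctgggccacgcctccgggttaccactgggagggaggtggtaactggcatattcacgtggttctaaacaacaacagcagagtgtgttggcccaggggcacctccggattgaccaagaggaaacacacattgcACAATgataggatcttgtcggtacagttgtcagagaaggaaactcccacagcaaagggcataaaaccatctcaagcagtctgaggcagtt
Spp1: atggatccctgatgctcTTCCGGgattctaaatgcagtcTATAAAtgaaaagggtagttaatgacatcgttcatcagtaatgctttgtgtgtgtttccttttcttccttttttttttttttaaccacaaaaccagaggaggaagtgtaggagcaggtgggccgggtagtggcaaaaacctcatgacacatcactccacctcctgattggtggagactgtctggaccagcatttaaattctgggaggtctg
The Krt23 window is chr11:99493121-99493370 on the minus strand and the Spp1 window chr5:104434861-104435110 on the plus strand, 1 of 2 windows of Spp1. Of all 32851 windows of this length, 27.7% held the SOX letters, 12.03% those of Ets and 12.4% the TATA letters. Among the 7 windows of the 5 genes, Ets letters were found in 3, of Cldn7 and Spp1, and the SOX and TATA letters in 1 each. TEAD (GGAATG, in 12.6% of all windows) and RBPJ (TGGGAA, in 21.6%) letters were found in 1 Cldn7 window each, and AP-1 letters (TGANTCA, in 6.75%) in none. A match is a run of letters and not a bound site.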

How the data were processed

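Scanner output of 2 Agilent arrays of 2 colours was used. The authors deposited spot mean signals and local background medians as scanned intensity values, and processed signals, which are intensity values the scanner software had background-corrected and dye-normalized, per the file headers. Log ratios were deposited as log10 values, red divided by green, and the deposited error of each is a score in the same log10 units, shown after ± in log2 units. The error was not computed for the normexp and loess ratio it stands beside. The submitters' processing notes name Agilent Feature Extraction 10.5.1.1, and the file headers 10.7.3.1. The deposited value table equalled the scanner's log10 ratio in all 44397 features, with a tolerance of 0 and medians of 0.

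With limma 3.58.1 in R 4.3.3, spot means were corrected by normexp (offset 50) and normalized by loess, with weight 0 for control spots and for the 197 and 207 outlier spots of the wild-type and AID transgenic array, which were then left out. No spot of the 9 genes was an outlier or saturated. Aquantile was used for levels and comparisons across arrays. The error of a level or of a comparison across arrays comes from the software's errors of the processed signals. Spots of a probe, then probes of a gene, were averaged, and a probe was well above background where at least 0.5 of its spots were. Folds written as "at least" use the dim level or, if higher, the channel's lowest level among probes well above background, and are open to dye bias. Of 39429 probes, 26055 were named by accession, 3195 by symbol and 930 by synonym through RefSeq, and 9249 by none. The 10 spots of each of 399 repeated probes had a median SD of 0.07 in log2 ratio on both arrays. The signs of known fold changes were tested on simulated data, and their estimated sizes were not held to a limit.

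The 5 comparisons, the size rule and 8 alternative settings are descriptions without a test. The 9 genes and the 13 other gene lists were chosen with earlier results of these data known. Named genes are the 9, the genes of each list at 2-fold, at most 4 more in list order, the 5 sex-linked transcripts and the 3 nearest genes. A few named by this rule are left out here. Python 3.11.15, numpy 2.4.6 and pandas 2.3.3 were used, and matplotlib 3.10.9 for plots.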

Additional observations from a re-analysis of the deposited data

Results flagged for a closer look

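Krt19 and Spp1 had treatment ratios beyond the scanner error in opposite directions in the 2 genotypes, higher after thioacetamide in wild-type and lower in AID transgenic mice. The difference of the log2 ratios, AID transgenic minus wild-type, was -1.46 for Krt19 and -1.14 for Spp1. The difference was not tested, since each genotype had 1 array. With median centring the AID transgenic ratio of Spp1 was above 0, at 0.12. No group had the 4 samples needed to look for a sample apart from the others.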

How the results depend on the processing

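The difference between genotypes and the comparison of the treated livers kept their sign for all 9 genes under every alternative, the untreated comparison for 7, the wild-type ratio for 6 and the AID transgenic ratio for 5. Median centring turned wild-type Sox9 to 0.11, Krt7 to -0.11 and Epcam to -0.03, and AID transgenic Spp1 to 0.12, Bicc1 to 0.51 and Cd24a to 0.06. It also put the median of all genes at 0.35 and 0.34, so Spp1 and Cd24a stayed below that median and Bicc1 did not. The median of the 9 genes in wild-type was 0.91 with an offset of 0, 0.97 with processed signals and 0.93 with median centring. Between treated livers it was -0.70 with an offset of 0 and -1.04 with processed signals, and the difference between genotypes had -1.45 with processed signals. In AID transgenic mice 1 of the 9 was lower at 2-fold with an offset of 0 (1.61% of all genes) or processed signals (2.84%). With median centring 1 was higher (8.14%). Between treated livers 2 were lower with an offset of 0 (1.35% of all genes) and 5 with processed signals (2.71%). Without normalization between arrays 3 were lower in the same comparison (0.978%). Between untreated livers 1 was higher with processed signals (1.504%). At 1.5-fold, 5 were higher in wild-type (6.01% of all genes), and 1 higher and 1 lower in AID transgenic mice (4.76% and 3.40%). Also at 1.5-fold, 1 was higher between untreated livers (0.993%) and 4 were lower between treated livers (2.04%). Of 153 single-gene values under the alternatives that can move a gene with 1 probe and no outlier spot, 37 moved by more than the error. The cause was not tested.

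Over all genes, calls higher and lower in wild-type were 310 and 274 (53.1% higher), against 782 and 406 (65.8%) with an offset of 0, 1576 and 605 (72.3%) with processed signals, 1729 and 102 (94.4%) with median centring and 1001 and 815 at 1.5-fold. In AID transgenic mice they were 203 and 158 (56.2%), against 620 and 269 (69.7%), 1518 and 474 (76.2%), 1358 and 53 (96.2%) and 794 and 568. For the difference they were 159 and 180, against 376 and 504, 802 and 943 with the first 2 settings, and 507 and 499 at 1.5-fold. Untreated, 44 and 42 became 106 and 99, 215 and 204, and 142 and 139, and treated, 125 and 130 became 238 and 230, 459 and 462, and 426 and 348. Without normalization between arrays the split was 40.0% higher against 51.2% untreated and 37.0% against 49.0% treated, with all-gene medians of -0.13 and -0.11. Krt7 and Epcam are limited by their signal, at or near background. No array could be left out, with 1 per genotype. No paired analysis was possible because each genotype had 1 array.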
